A study of Mus musculus with 12 samples.

Results

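The genes of the aryl hydrocarbon receptor and of related xenobiotic enzymes were examined in the carotid arteries of Poldip2-/- mice and of their control littermates. The set held 10 of the 35275 genes in the deposited table, namely Ahr, Ahrr, Tiparp, Cyp1a1, Cyp1b1, Fmo1, Fmo2, Ugt8a, Ephx1 and Por. It was selected on measured values, because Cyp1b1, Fmo1 and Ugt8a were higher in endothelial RNA of Poldip2-/- arteries, so that the endothelial genotype values below describe the choice and test nothing. RNA-seq had been performed on the endothelial layer, which was RNA washed out of the carotid lumen with Qiazol, and on the remaining vessel, called the medial layer here although it also held adventitia. The groups were endothelial Poldip2-/-, endothelial control, medial Poldip2-/- and medial control. All mice were C57BL/6 on standard chow and 10 weeks old. The mutants carried a whole-body deletion of Poldip2 exon 4, made in early embryos by an EIIa-driven Cre and kept as a constitutive allele of a line from a single embryonic stem cell clone, so the loss was not limited to a vascular cell type. The labels list 2 samples of each genotype for the endothelial layer and 4 of each genotype for the medial layer. The methods give the same number of replicates for every group, so which samples entered the endothelial group values is not settled. The values used were 1 FPKM (fragment counts scaled to transcript length and library size) per group. Columns of single samples could not be tied to a genotype by the labels and were not used, so no replicate error or test is given, and every difference below is the size of a difference between group values.

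The aryl hydrocarbon receptor, encoded by Ahr, is a cytoplasmic transcription factor held by chaperones until it binds a ligand such as a dioxin or a tryptophan metabolite. It then enters the nucleus, pairs with the product of Arnt and binds DNA elements that share a short core, which raises transcription of Cyp1a1, Cyp1b1, Ahrr and Tiparp. The products of Ahrr and Tiparp repress the receptor in return. The cytochrome P450 enzymes CYP1A1 and CYP1B1 oxidise foreign and endogenous lipophilic compounds with electrons from P450 oxidoreductase, the product of Por. Flavin monooxygenases (Fmo1, Fmo2) oxidise nitrogen and sulphur in drugs and metabolites, the microsomal epoxide hydrolase (Ephx1) opens epoxides, and Ugt8a encodes the galactosyltransferase that makes galactosylceramide, a lipid of myelin. In vessels, Cyp1b1 is a known target of fluid shear stress in endothelium.

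Ratios between groups are on the log2 scale, with 1 FPKM added to both values, folds are plain FPKM quotients, and a gene was counted where its mean over the compared groups was at least 1 FPKM. A gene past the mark differed by at least 2-fold on the log2 scale, a ratio of at least 1 or at most -1. Poldip2 itself had 8.27 FPKM in the endothelial layer of Poldip2-/- arteries, against 21.1 FPKM in controls, and 10.3 FPKM in the medial layer of Poldip2-/- arteries, against 35.9 FPKM in controls. FPKM was given per gene and not per exon, so transcripts without exon 4 can still add to it. Endothelial marker genes of Poldip2-/- arteries summed to 83.1 FPKM in medial RNA and 3985 FPKM in endothelial RNA, and those of controls to 156 FPKM in medial RNA and 3745 FPKM in endothelial RNA, so the labels of the layers held for both genotypes. Leukocyte genes were low in the endothelial layer, where 9 markers summed to 61.8 FPKM in Poldip2-/- arteries and 106 FPKM in controls, most of it from Lyz2.

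Promoter sequences are shown first for Cyp1b1, Ugt8a and Tiparp, whose genotype ratios had opposite signs in the layers. Their promoters hold the core of the receptor's DNA element. Medial Ugt8a was under the minimum, so its sign there is not counted. Ahr and Fmo1 also had opposite signs but no matched RefSeq promoter. Fmo2, whose medial sign depended on the scale, had promoters without the core. No link of sign and core is therefore drawn. Ahrr is shown as the receptor's feedback target. The sequences are from RefSeq on GRCm38.p6, 5′ to 3′ on the coding strand, and stop before the outermost start of the gene in RefSeq or the deposited table. Capitals mark the core GCGTG or its complement CACGC.
Cyp1b1: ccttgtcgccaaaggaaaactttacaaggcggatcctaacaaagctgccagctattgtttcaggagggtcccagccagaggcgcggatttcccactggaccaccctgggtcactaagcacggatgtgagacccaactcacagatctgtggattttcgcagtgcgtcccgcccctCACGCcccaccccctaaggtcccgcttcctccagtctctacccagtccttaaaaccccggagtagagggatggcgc
Ugt8a: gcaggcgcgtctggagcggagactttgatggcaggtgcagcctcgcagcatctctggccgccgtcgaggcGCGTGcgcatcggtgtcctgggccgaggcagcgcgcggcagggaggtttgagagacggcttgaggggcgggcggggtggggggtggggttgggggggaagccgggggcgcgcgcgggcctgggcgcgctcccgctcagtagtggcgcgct
Tiparp: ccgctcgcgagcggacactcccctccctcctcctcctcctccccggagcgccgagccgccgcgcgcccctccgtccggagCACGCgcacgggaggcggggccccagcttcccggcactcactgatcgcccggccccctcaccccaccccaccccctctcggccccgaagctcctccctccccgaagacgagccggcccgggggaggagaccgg
Ahrr: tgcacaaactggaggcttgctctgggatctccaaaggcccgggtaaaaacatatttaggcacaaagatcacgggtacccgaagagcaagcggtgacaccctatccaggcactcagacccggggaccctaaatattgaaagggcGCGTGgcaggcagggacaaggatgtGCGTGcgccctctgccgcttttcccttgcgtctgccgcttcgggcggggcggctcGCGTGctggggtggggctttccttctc

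These stretches lie at chr17:79715062-79715311 on the minus strand for Cyp1b1, at chr3:125938683-125938902 on the minus strand for Ugt8a, at chr3:65528197-65528409 on the plus strand for Tiparp and at chr13:74292332-74292581 on the minus strand for Ahrr. The core begins 76 bases before the RefSeq start in Cyp1b1, 180 bases before it in Ugt8a and 170 bases before it in Tiparp. Ahrr holds it 107, 82 and 27 bases before its start. RefSeq promoter windows, 250 bases before to 50 bases after a start, were matched for 8 of the 10 genes, and Ahr and Fmo1 were not among them. The core stood on either strand in the windows of 6 of these 8 genes, those of Cyp1b1, Ugt8a, Tiparp, Ahrr, Cyp1a1 and Por, while the windows of Fmo2 and Ephx1 did not hold these letters. Of all 32851 windows, which belong to 27025 genes, 32.4% held the core at least once and 3.91% held it at least 3 times, as those of Ahrr and Por did. These are shares of windows, while the 6 of 8 is a count of genes. The set holds known receptor targets such as Cyp1a1, Cyp1b1, Ahrr and Tiparp, so this count describes the choice. A match describes the letters of the window and does not show a bound site.

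Ahr was expressed at a low level and mainly in the endothelial layer. The gene lies at chr12:35497974-35535038 on the minus strand of GRCm38. It had 5.80 FPKM in the endothelial layer of Poldip2-/- arteries, against 4.67 FPKM in controls, a log2 ratio of 0.26. Medial Ahr had 0.847 FPKM in Poldip2-/- arteries, against 1.53 FPKM in controls, a log2 ratio of -0.45. Neither layer reached the 2-fold mark. The medial level was 6.85-fold below the endothelial level in Poldip2-/- arteries and 3.06-fold below it in controls.

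Ahrr, the gene of the receptor's repressor, was listed near 0 in every group. It had 0.0367 FPKM in the endothelial layer of Poldip2-/- arteries, against 0.0590 FPKM in controls, and 0.0789 FPKM in the medial layer of Poldip2-/- arteries, against 0.426 FPKM in controls. The group means of scaled read counts were 3.69 in Poldip2-/- and 5.97 in control endothelial RNA, and 7.47 in Poldip2-/- and 34.7 in control medial RNA. Values of this size stood beside a low-level signal in the control libraries. Of 1097 olfactory receptor genes, which serve here as genes without a use in arteries, 7.20% had a value over 0 in the medial layer of Poldip2-/- arteries and 93.1% in controls, and 27.1% in the endothelial layer of Poldip2-/- arteries and 70.1% in controls. The part of that signal in the Ahrr values was not tested.

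Tiparp, which encodes an ADP-ribosyltransferase that represses the receptor, had opposite signs in the layers. The gene lies at chr3:65528410-65555145 on the plus strand. It had 13.7 FPKM in the endothelial layer of Poldip2-/- arteries, against 7.84 FPKM in controls, 1.75-fold higher. In the medial layer it had 4.38 FPKM in Poldip2-/- arteries, against 9.60 FPKM in controls, 2.19-fold lower. The log2 ratios of 0.73 and -0.98 both stayed inside the mark, the medial one just short of it. A pseudogene read from the other strand, 4931440P22Rik, shares 5.12% of the exon bases of Tiparp. It had at most 0.649 FPKM, and the library preparation was not stated to keep the strand.

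Of the CYP1 pair, Cyp1b1 was abundant and Cyp1a1 was listed near 0. Cyp1b1, which lies at chr17:79706953-79715041 on the minus strand, had 100.01 FPKM in the endothelial layer of Poldip2-/- arteries, against 32.7 FPKM in controls. This was 3.06-fold higher, a log2 ratio of 1.58 that ranked 15 among 11514 genes counted in the endothelial layer. Medial Cyp1b1 had 37.6 FPKM in Poldip2-/- arteries, against 55.5 FPKM in controls, 1.48-fold lower, with a log2 ratio of -0.55. The group means of scaled read counts behind these values were 10111 in Poldip2-/- and 3313 in control endothelial RNA, and 3610 in Poldip2-/- and 4568 in control medial RNA. Cyp1b1 thus had its highest value in the endothelial layer of Poldip2-/- arteries and its lowest in the endothelial layer of controls.

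Cyp1a1, the gene most often used as a readout of the receptor, had 0.0236 FPKM in the endothelial layer of Poldip2-/- arteries, against 0.0310 FPKM in controls. Medial Cyp1a1 was listed at 0 in Poldip2-/- arteries, against 0.0723 FPKM in controls. Its group means of scaled read counts were at most 3.01, so a difference between genotypes was not detectable at this depth. Its liver paralogue Cyp1a2, named after its values were seen, was listed at 0 and 0.00684 FPKM in Poldip2-/- and control endothelial RNA. It had 0.0145 FPKM in Poldip2-/- and 0.151 FPKM in control medial RNA.

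Por, the electron donor of these enzymes, was nearly level over the groups. It lies at chr5:135670033-135735326 on the plus strand. It had 107.9 FPKM in the endothelial layer of Poldip2-/- arteries, against 99.0 FPKM in controls, and 86.2 FPKM in the medial layer of Poldip2-/- arteries, against 83.4 FPKM in controls. Its log2 ratio between genotypes was 0.12 in endothelial RNA and 0.05 in medial RNA.

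**Figure D1:**
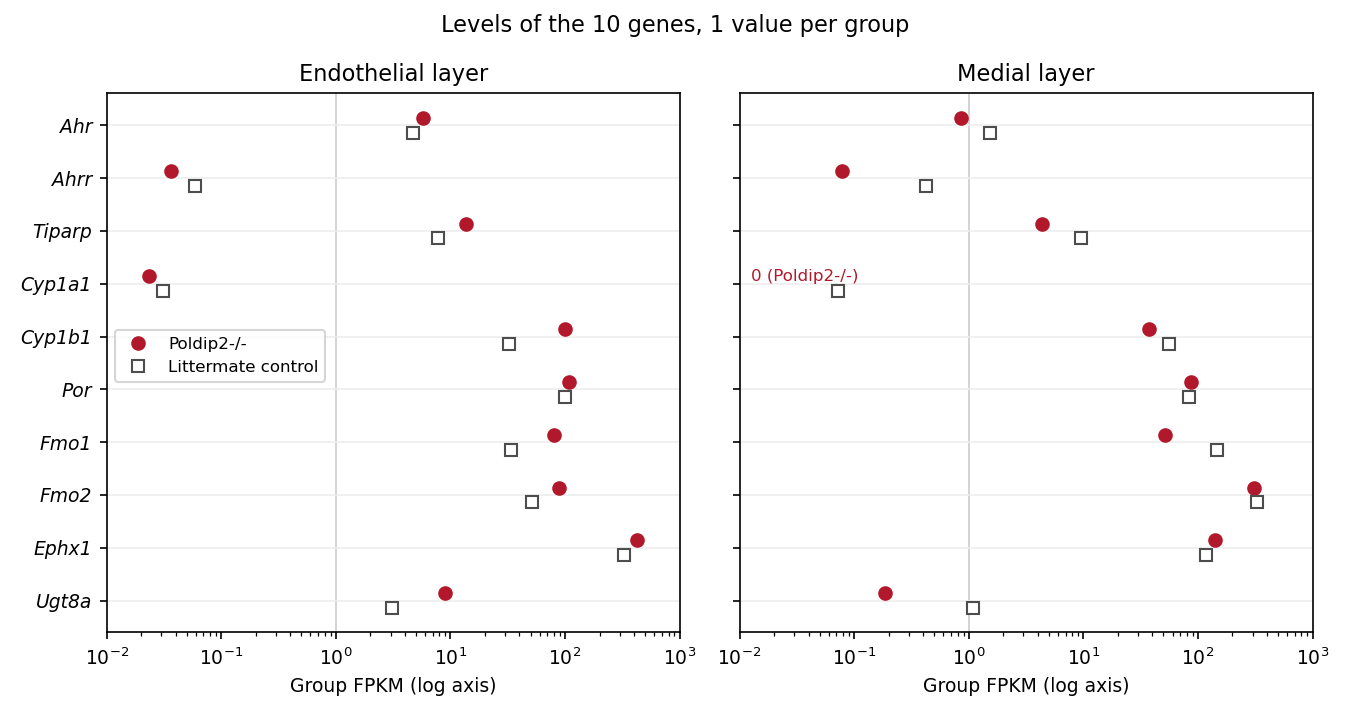
Group FPKM (log axis) of the 10 genes in the endothelial layer (left) and the medial layer (right), with filled circles for Poldip2-/- and open squares for littermate controls, 1 value per group and no error bars. Cyp1b1, Fmo1 and Ugt8a lay above controls in the endothelial layer of Poldip2-/- arteries and below controls in the medial layer. Medial Ugt8a had a mean under 1 FPKM and was not counted, and medial Cyp1a1 was listed at 0 in Poldip2-/- arteries.

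Among the 7 genes counted in both layers, Fmo1 had genotype ratios that lay farthest apart. It had 79.3 FPKM in the endothelial layer of Poldip2-/- arteries, against 33.4 FPKM in controls, 2.37-fold higher, with a log2 ratio of 1.22 and rank 30. Medial Fmo1 had 51.8 FPKM in Poldip2-/- arteries, against 148 FPKM in controls, 2.86-fold lower, with a log2 ratio of -1.50. Fmo1 was past the mark in both layers and in opposite directions. Its group means of scaled read counts were 3682 in Poldip2-/- and 1530 in control endothelial RNA, and 2259 in Poldip2-/- and 5538 in control medial RNA.

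Fmo2 was the most abundant of the 10 genes in the medial layer. It had 88.0 FPKM in the endothelial layer of Poldip2-/- arteries, against 51.4 FPKM in controls, 1.71-fold higher, with a log2 ratio of 0.76. Medial Fmo2 had 305 FPKM in Poldip2-/- arteries, against 327 FPKM in controls. The medial ratio of -0.10 became positive when the ratios were centred on the median of all genes (0.07), with scaled read counts (0.12) and with FPKM rescaled over nuclear protein-coding genes (0.06), so no direction is given.

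Fmo1 and Fmo2 are neighbours in a cluster of flavin monooxygenase genes on chromosome 1, all on the minus strand. Along GRCm38 the order is Fmo4, Fmo1 (chr1:162829561-162866548) and Fmo2 (chr1:162874317-162898726), with 15588 and 7768 bases between them, while Fmo5 lies on chromosome 3. Fmo4 had at most 0.904 FPKM in any group. Fmo5 had 54.5 FPKM in Poldip2-/- and 45.5 FPKM in control endothelial RNA, and 10.8 FPKM in Poldip2-/- and 14.4 FPKM in control medial RNA, with log2 ratios of 0.25 and -0.39.

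Ephx1 was the most abundant of the 10 genes in the endothelial layer. It lies at chr1:180976155-181020904 on the minus strand. It had 421 FPKM in the endothelial layer of Poldip2-/- arteries, against 327 FPKM in controls, and 141 FPKM in the medial layer of Poldip2-/- arteries, against 117 FPKM in controls. The log2 ratios of 0.36 and 0.27 were inside the mark and had the same sign in both layers. The soluble epoxide hydrolase gene Ephx2, which inactivates epoxides of arachidonic acid and is named after its values were seen, had 350 FPKM in the endothelial layer of Poldip2-/- arteries, against 208 FPKM in controls. Medial Ephx2 had 15.7 FPKM in Poldip2-/- arteries, against 37.6 FPKM in controls, a log2 ratio of -1.21.

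Ugt8a was lower in medial than in endothelial RNA of both genotypes, at low levels throughout. The gene lies at chr3:125865359-125938550 on the minus strand. It had 8.98 FPKM in the endothelial layer of Poldip2-/- arteries, against 3.08 FPKM in controls, 2.91-fold higher, with a log2 ratio of 1.29 and rank 27. Medial Ugt8a had 0.187 FPKM in Poldip2-/- arteries, against 1.10 FPKM in controls. The medial mean of 0.643 FPKM was under the minimum, so the medial difference was not counted. Its group means of scaled read counts were 643 in Poldip2-/- and 217 in control endothelial RNA, and 12.4 in Poldip2-/- and 63.1 in control medial RNA.

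Genes of galactolipid synthesis and of Schwann cells were set beside Ugt8a. Of 7 genes that make or break down galactosylceramide and related lipids, 5 were counted in the endothelial layer, none was past the mark and their median log2 ratio was -0.02. Fa2h, which hydroxylates fatty acids of myelin lipids, and Gal3st1, which sulphates galactosylceramide, had at most 0.152 and 0.428 FPKM in any group. Of 7 Schwann cell markers, 4 were counted in the endothelial layer and none was past the mark. The defining marker Sox10 had 0.0560 FPKM in endothelial RNA of Poldip2-/- arteries, against 0.0633 FPKM in that of controls. Mbp, the myelin basic protein gene, had 2.70 FPKM in endothelial RNA of Poldip2-/- arteries, against 1.05 FPKM in that of controls, a log2 ratio of 0.86. Fa2h, Gal3st1 and these 2 markers were named after their values were seen.

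In the endothelial layer, 8 of the 10 genes were counted and 3 were past the mark, all of them higher in Poldip2-/- arteries, beside 0.434% of 11514 genes. None was lower past the mark, beside 1.44% of all genes. Cyp1b1, Fmo1 and Ugt8a were chosen for being higher here, so the count follows from the choice. The gene that passed the mark most narrowly was Fmo1 at 1.22, and the nearest one that did not reach it was Fmo2 at 0.76. All 8 had positive ratios with a median of 0.75, against a median of 0.05 and 58.5% positive over all genes.

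In the medial layer, which had no part in the choice, 7 of the 10 genes were counted. None was higher past the mark, beside 7.22% of 13082 genes, and 1, Fmo1, was lower past the mark, beside 14.3% of all genes. One gene among 7 is near that background. The median of the 7 log2 ratios was -0.45, against -0.17 over all genes, and 5 were negative. That median of all genes depended on the scale and was 0.03 with scaled read counts. Relative to the median of all genes, the medial log2 ratios were -1.33 for Fmo1, -0.81 for Tiparp, -0.38 for Cyp1b1, -0.28 for Ahr, 0.22 for Por and 0.43 for Ephx1. Of all medial genes past the mark, 33.5% were higher in Poldip2-/- arteries, and this share was 45.2% after centring, 47.0% with scaled read counts, 42.7% after rescaling, 22.5% with no minimum, 44.7% with a minimum of 5 FPKM and 51.1% after centring by gene length.

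**Figure D2:**
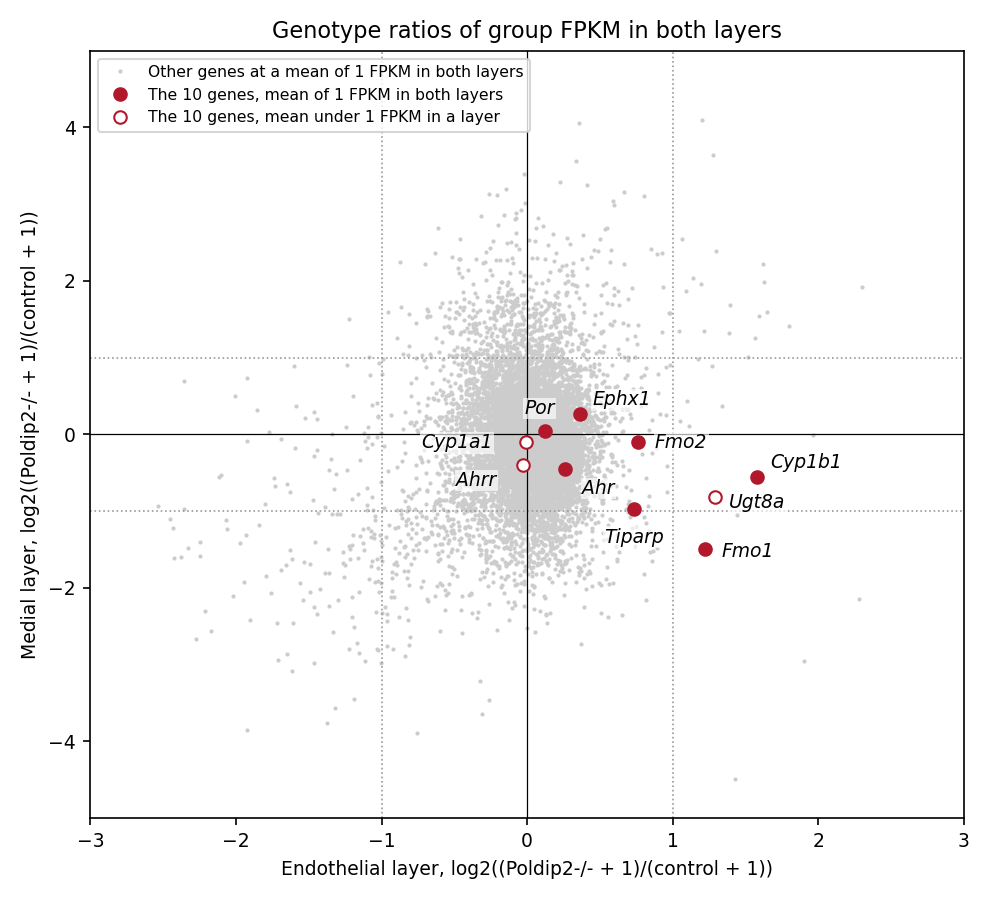
Genotype log2 ratios of group FPKM, Poldip2-/- over control, in the endothelial layer (x axis) and the medial layer (y axis) for 10915 of 10920 genes counted in both layers (grey) and the 10 genes (red, open where a layer mean was under 1 FPKM), with dotted lines at the 2-fold mark. Fmo1 lay past the mark on both axes (1.22 and -1.50), and Cyp1b1 and Tiparp also lay in the lower right part, while Ephx1 and Por lay above 0 on both axes.

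Opposite signs in the layers were frequent in the whole table. Of 10920 genes counted in both layers, 36.5% were higher in the endothelial layer and lower in the medial layer of Poldip2-/- arteries, and 5 of the 7 genes counted in both, Ahr, Tiparp, Cyp1b1, Fmo1 and Fmo2, were among them. Only 4 remain without Fmo2, whose medial sign depended on the scale. Ephx1 and Por were higher in both layers, as were 22.3% of all genes. All 7 had positive endothelial ratios, for which Cyp1b1 and Fmo1 had been chosen, so 36.5% is not a like background for them. Of all genes higher in the endothelial layer and counted in both, 3986 were lower and 2432 higher in the medial layer. Beside that split, the 5 of 7 is not read as a result about these genes. Among the 32 genes that were higher past the mark in the endothelial layer and counted in both, 7 (21.9%) had a negative medial ratio, 5 of them past the mark, and 19 were higher past the mark in the medial layer as well.

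The genotype log2 ratio in the medial layer minus that in the endothelial layer was -2.72 for Fmo1, -2.13 for Cyp1b1 and -1.71 for Tiparp. It was -0.86 for Fmo2, -0.71 for Ahr, -0.10 for Ephx1 and -0.08 for Por. Of these 7 genes, 3 were lower past the mark, beside 8.75% of 10920 genes, and none was higher, beside 7.23%. The endothelial part of this difference had been used to choose Cyp1b1 and Fmo1, so for them the count is a description. The difference between layers was not tested, since columns of single samples were not used.

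Cyp1b1 and Fmo1 had their higher group value in endothelial RNA of mutants and in medial RNA of controls, without replicate error. The endothelial values had been used to choose these genes, so this reversal in part describes the choice and was not tested. In Poldip2-/- arteries Cyp1b1 had 37.6 FPKM in medial RNA and 100.01 FPKM in endothelial RNA, and was thus 2.66-fold lower in the medial layer. In controls it had 55.5 FPKM in medial RNA and 32.7 FPKM in endothelial RNA, and was 1.70-fold higher in the medial layer. Fmo1 was 1.53-fold lower in the medial layer of mutants, with 51.8 FPKM against 79.3 FPKM in endothelial RNA. Its medial level in controls, 148 FPKM, was 4.43-fold higher than its endothelial level of 33.4 FPKM. Tiparp of Poldip2-/- arteries was 3.13-fold lower in medial than in endothelial RNA, while in controls its ratio of 0.26 turned to -0.14 with scaled read counts and to -0.01 after rescaling, so that no direction is given for controls.

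Fmo2 was higher in the medial layer in both genotypes, 3.47-fold in Poldip2-/- arteries and 6.36-fold in controls. Ephx1 was lower there in both, 2.98-fold in Poldip2-/- arteries and 2.79-fold in controls. Ugt8a was lower in medial than in endothelial RNA, 48.1-fold in Poldip2-/- arteries and 2.81-fold in controls, on medial levels of 0.187 and 1.10 FPKM.

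In Poldip2-/- arteries, 1 of 8 genes counted, Fmo2, was higher past the mark in the medial layer, beside 14.1% of 12140 genes. The 5 genes Ahr, Tiparp, Cyp1b1, Ugt8a and Ephx1 were lower past it, beside 13.3%. In controls, 2 of 8, Fmo1 and Fmo2, were higher past the mark, beside 20.2% of 13354 genes, and 2, Ahr and Ephx1, were lower, beside 12.1%. The endothelial values that enter these ratios were used to choose Cyp1b1, Fmo1 and Ugt8a. In controls 62.6% of genes past the mark were higher in the medial layer, and this share was 43.1% with scaled read counts, 48.9% after rescaling and 49.9% with a minimum of 5 FPKM.

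**Figure D3:**
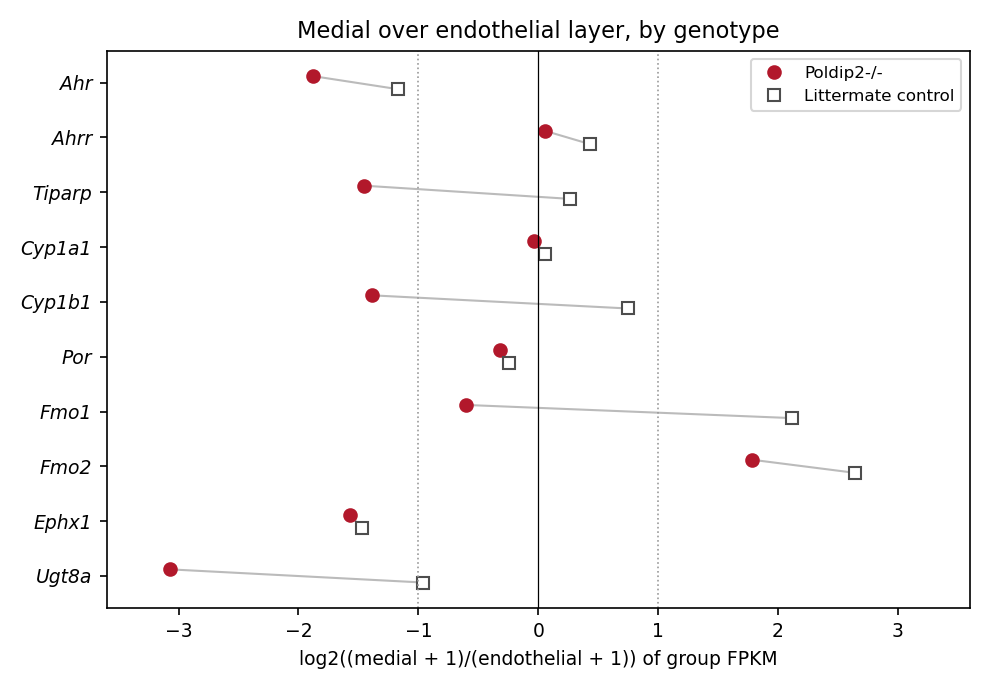
Log2 ratio of medial over endothelial group FPKM for each of the 10 genes, with filled circles for Poldip2-/- arteries, open squares for littermate controls and dotted lines at the 2-fold mark. Cyp1b1 and Fmo1 lay left of 0 in Poldip2-/- arteries (-1.39 and -0.61) and right of 0 in controls (0.75 and 2.11), while Ephx1 and Por had nearly the same ratio in both genotypes.

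The order of the 10 genes by level was similar in the 4 groups at the low end and differed at the top. Ahrr and Cyp1a1 were the lowest in each group. Ephx1 had rank 1 and Por rank 2 in the endothelial layer of both genotypes. Cyp1b1 had rank 3 there in Poldip2-/- arteries and rank 5 in controls, where Fmo1 (33.4 FPKM) and Cyp1b1 (32.7 FPKM) lay side by side. Fmo2 had rank 1 in the medial layer of both genotypes, and Fmo1 had rank 4 among the 10 genes in Poldip2-/- arteries and rank 2 in controls. FPKM is per length of transcript, so these levels can be set beside each other, but without replicate values it cannot be said which neighbours differ beyond their spread.

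Other members of the receptor pathway were taken as lists. Of 9 partners and chaperones of the receptor, 8 were counted in the endothelial layer, with a median log2 ratio of -0.02. None was past the mark, beside 0.434% of all genes higher and 1.44% lower. Arnt, the receptor's DNA-binding partner and named after its values were seen, had 28.1 FPKM in the endothelial layer of Poldip2-/- arteries, against 27.7 FPKM in controls. Medial Arnt had 19.9 FPKM in Poldip2-/- arteries, against 20.6 FPKM in controls. In medial RNA 1 of 8, the kinase gene Src, was higher past the mark, beside 7.22% of all genes. One gene among 8 is near that background. Src had 7.98 FPKM in Poldip2-/- arteries and 3.34 FPKM in controls.

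Of 13 other genes known to respond to the receptor, 7 were counted in the endothelial layer, none was past the mark and the median log2 ratio was 0.13. Among them, Nqo1, which encodes a quinone reductase, had 9.89 FPKM in the endothelial layer of Poldip2-/- arteries, against 6.74 FPKM in controls, and 18.4 FPKM in the medial layer of Poldip2-/- arteries, against 9.87 FPKM in controls. Aldh3a1, which encodes an aldehyde dehydrogenase, had 69.6 FPKM in the endothelial layer of Poldip2-/- arteries, against 37.7 FPKM in controls. Medial Aldh3a1 had 13.5 FPKM in Poldip2-/- arteries, against 40.4 FPKM in controls, log2 ratios of 0.87 and -1.51 for the 2 layers. Nqo1 and Aldh3a1 were named after their values were seen.

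Medial RNA held 9 counted genes of these 13, with a median of -1.11, against -0.17 over all genes. Lower past the mark were 5, namely Aldh3a1, Ugt1a6a, Scin, Lpcat2 and Cd36, beside 14.3% of all genes. Cd36, a fatty acid transporter of fat cells and macrophages, had 17.7 FPKM in Poldip2-/- arteries, against 57.9 FPKM in controls. Ugt1a6a, a glucuronosyltransferase gene that shares exons with other Ugt1a genes and whose value is therefore uncertain, had 0.0630 FPKM in Poldip2-/- arteries, against 2.32 FPKM in controls. The 3 counted genes with a positive ratio were Nqo1 at 0.84, the cell cycle inhibitor gene Cdkn1b at 0.66 and the amino acid transporter gene Slc7a5 at 0.28, the last 2 also named after their values were seen.

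By list median, other P450 enzymes, electron donors, conjugating enzymes, hydrolases and reductases lay nearer the median of all genes in the endothelial layer. These lists were lower by median in the medial layer of Poldip2-/- arteries. In the endothelial layer none of 10 counted cytochromes P450, none of 7 P450 electron donors and none of 13 hydrolases and reductases was past the mark. Their medians were 0.18, 0.13 and 0.27. Of the 10 cytochromes P450, 8 were higher and 2 lower in Poldip2-/- arteries. Cyp4b1, the most abundant of them there, had 201 FPKM in Poldip2-/- arteries, against 382 FPKM in controls. Its log2 ratio of -0.93 was just inside the mark, and its endothelial values are given after they were seen. Of 18 conjugating enzymes counted there, Sult5a1, a sulphotransferase gene, was lower past the mark, beside 1.44% of all genes. It had 0.573 FPKM in Poldip2-/- arteries and 2.31 FPKM in controls, and the median of the list was 0.18.

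Medial RNA gave 4 of 12 counted cytochromes P450 lower past the mark, beside 14.3% of all genes. Their median ratio was -0.82, against -0.17 over all genes. Cyp4b1, a fatty acid hydroxylase, had 3.55 FPKM in Poldip2-/- arteries, against 15.7 FPKM in controls, and Cyp2e1, which oxidises ethanol and small solvents, had 37.9 FPKM in Poldip2-/- arteries, against 133 FPKM in controls. Of 19 conjugating enzymes, 7 were lower past the mark, beside the same 14.3% of all genes, with a median of -0.61. Mgst1, a membrane glutathione transferase, had 82.3 FPKM in Poldip2-/- arteries, against 379 FPKM in controls, and Ugdh, which makes the sugar donor of glucuronidation, had 40.3 FPKM in Poldip2-/- arteries, against 175 FPKM in controls.

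Of 14 hydrolases and reductases, 6 were lower past the mark in medial RNA, beside 14.3% of all genes, and the median was -0.66. Aldh1a1, a retinaldehyde dehydrogenase, had 36.6 FPKM in Poldip2-/- arteries, against 142 FPKM in controls, and Ces1d, a carboxylesterase of fat cells and liver, had 18.7 FPKM in Poldip2-/- arteries, against 61.9 FPKM in controls. Of 7 electron donors, Cyb5a (cytochrome b5) was lower past the mark, with 134 FPKM in Poldip2-/- arteries and 343 FPKM in controls. One gene among 7 is near the 14.3% of all genes. No gene of these 4 lists was higher past the mark in the medial layer, beside 7.22% of all genes.

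**Figure D4:**
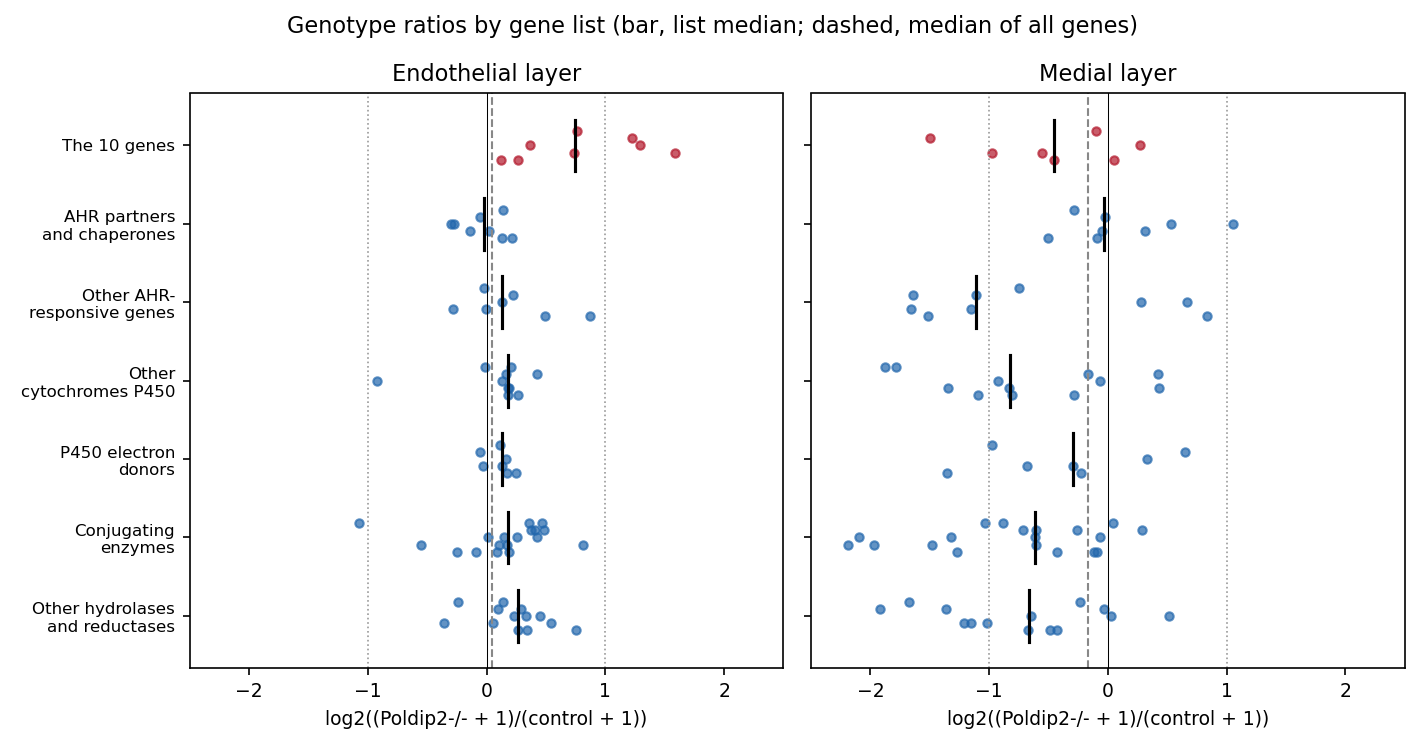
Genotype log2 ratios, Poldip2-/- over control, of each counted gene by list in the endothelial layer (left) and the medial layer (right), with a bar at each list's median, a dashed line at the median of all genes and dotted lines at the 2-fold mark. The 10 genes (red, median 0.75) lay right of most lists in the endothelial layer, where 3 of them had been chosen for it, and the conjugating enzymes (median -0.61) and hydrolases and reductases (median -0.66) lay left of 0 in the medial layer.

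Markers of other cell types differed between genotypes in both layers, and in bulk RNA fewer cells of a type and less RNA per cell cannot be told apart. Over all genes, 0.434% were higher and 1.44% lower past the mark in the endothelial layer. In the medial layer these shares were 7.22% and 14.3%. In the endothelial layer, 0 of 10 endothelial markers were past the mark and their median log2 ratio was -0.02. Their ratios ranged from -0.46 for Erg to 0.72 for Emcn, values given after they were seen. Of 7 counted smooth muscle markers, 4 were higher past the mark, Acta2, Tagln, Cnn1 and Myl9. All 9 smooth muscle markers summed to 522 FPKM in Poldip2-/- arteries and 180 FPKM in controls, with no marker at 0. Acta2, the smooth muscle actin gene, had 313 FPKM in Poldip2-/- arteries, against 101 FPKM in controls, and Myl9 had 61.5 FPKM, against 19.3 FPKM in controls. The differences of Acta2 and Myl9 were about as large as that of Cyp1b1, and their part in it was not tested. Other markers of the list differed less. Smtn had 25.4 FPKM in Poldip2-/- arteries, against 17.0 FPKM in controls, and Mylk had 3.68 FPKM, against 3.45 FPKM. Des, which was not counted, had 0.116 FPKM, against 0.185 FPKM in controls. These 3 endothelial values are given after they were seen. The endothelial sum of all 9 smooth muscle markers was 1.99% of the medial sum in Poldip2-/- arteries and 2.73% in controls. The same share was 6.25% in Poldip2-/- arteries and 6.44% in controls for fibroblast markers, 10.4% in Poldip2-/- arteries and 3.57% in controls for leukocyte markers, and 12.1% in Poldip2-/- arteries and 2.19% in controls for fat cell markers.

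Fibroblast markers went the other way in the endothelial layer, where 9 of 10 were lower past the mark and the list summed to 500 FPKM in Poldip2-/- arteries and 1098 FPKM in controls. Col1a1 had 5.0 FPKM in Poldip2-/- arteries, against 29.7 FPKM in controls, and Scara5 had 5.99 FPKM, against 34.2 FPKM in controls. Leukocyte, fat cell, Schwann cell and lymphatic lists held no gene past the mark there.

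In the medial layer, all 9 smooth muscle markers were higher past the mark and summed to 26238 FPKM in Poldip2-/- arteries and 6575 FPKM in controls. Myh11 had 729 FPKM in Poldip2-/- arteries, against 83.8 FPKM in controls, and Mylk had 148 FPKM, against 20.1 FPKM in controls. Of 10 fibroblast markers, 7 were lower past the mark, and the list summed to 7989 FPKM in Poldip2-/- arteries and 17031 FPKM in controls. The collagen genes Col1a1 and Col1a2 went the other way, Col1a1 with 455 FPKM in Poldip2-/- arteries and 281 FPKM in controls and Col1a2 with 1015 FPKM in Poldip2-/- arteries and 762 FPKM in controls, both short of the mark, Col1a2 being named after its values were seen. Dpt had 106 FPKM in Poldip2-/- arteries, against 820.3 FPKM in controls, and Clec3b had 178 FPKM, against 773 FPKM in controls.

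Leukocyte markers were lower past the mark in 7 of 8 counted medial genes, with a sum of 593 FPKM in Poldip2-/- arteries and 2957 FPKM in controls. Lyz2 had 461 FPKM in Poldip2-/- arteries, against 2500.4 FPKM in controls, and Tyrobp had 56.6 FPKM, against 278 FPKM in controls. Fat cell markers were lower past the mark in 6 of 7, with a sum of 710.5 FPKM in Poldip2-/- arteries and 2910.3 FPKM in controls. Adipoq, the adiponectin gene, had 24.9 FPKM in Poldip2-/- arteries, against 131 FPKM in controls, and Cfd had 405 FPKM, against 1932 FPKM in controls. Endothelial markers were lower past the mark in 3 of 9, Icam2, Tek and Emcn, and their sum was 83.1 FPKM in Poldip2-/- arteries and 156 FPKM in controls. Icam2 had 8.42 FPKM in Poldip2-/- arteries, against 28.2 FPKM in controls, and Tek had 8.0 FPKM, against 23.5 FPKM in controls.

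The 3 counted lymphatic markers were also lower past the mark in the medial layer, Pdpn with 6.12 FPKM in Poldip2-/- arteries and 20.5 FPKM in controls and Ccl21a with 2.99 FPKM in Poldip2-/- arteries and 10.9 FPKM in controls. Of 3 counted Schwann cell markers, S100b was lower past the mark, with 3.50 FPKM in Poldip2-/- arteries and 8.67 FPKM in controls. Liver markers summed to 0.0181 FPKM in the medial layer of Poldip2-/- arteries and 4.81 FPKM in controls, with 4 of 6 at 0 in Poldip2-/- arteries. These liver values stood beside the low-level signal in control libraries. In medial RNA 93.1% of olfactory receptor genes had a value over 0 in controls, against 7.20% in Poldip2-/- arteries. The liver values are therefore not read as a difference in cells. The lower medial levels of Fmo1, Tiparp and the other enzyme lists stood beside the lower sums of the other markers. The parts of cell composition and of the low-level control signal in them were not tested.

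The genes whose levels over the 4 groups were most like those of the 3 chosen genes were sought among 11614 protein-coding genes that averaged 1 FPKM or more, by the Euclidean distance between log2 values centred on each gene's mean. For Fmo1 they were H2-Eb1, Gsta4 and Smpdl3b at distances of 0.30, 0.34 and 0.49. H2-Eb1, a class II histocompatibility gene, had 32.2 FPKM in Poldip2-/- and 17.3 FPKM in control endothelial RNA, and 24.4 FPKM in Poldip2-/- and 78.9 FPKM in control medial RNA. Gsta4, a glutathione transferase gene, had 4.51 FPKM in Poldip2-/- and 2.13 FPKM in control endothelial RNA, and 3.04 FPKM in Poldip2-/- and 9.07 FPKM in control medial RNA.

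For Ugt8a the nearest genes were Kcne3, Gimap9 and Arl4d at distances of 0.41, 0.43 and 0.47. Kcne3, a potassium channel subunit gene, had 12.2 FPKM in the endothelial layer of Poldip2-/- arteries, against 4.82 FPKM in controls. Medial Kcne3 had 0.186 FPKM in Poldip2-/- arteries, against 1.28 FPKM in controls. For Cyp1b1 they were farther away, Pxylp1, 1700112E06Rik and Ahsg at 0.59, 0.60 and 0.63, so its profile was less closely shared. Pxylp1, a xylose phosphatase gene, had 14.5 FPKM in Poldip2-/- and 7.41 FPKM in control endothelial RNA, and 6.59 FPKM in Poldip2-/- and 7.56 FPKM in control medial RNA.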

How the data were processed

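RNA of the endothelial and medial layers was sequenced for both genotypes, 12 samples by the labels. Poly-T enriched mRNA was sequenced with paired ends, and the authors aligned reads with TopHat 2.0.12, which used an index made by Bowtie 2.2.3. Their methods name mm9, but the deposited positions are those of GRCm38: 99.8% of the gene IDs found in GENCODE M21 overlapped their position there. The submitters' processing notes name further tools of the authors, edgeR 3.16.5, HTSeq 0.6.1, STAR-Fusion and STAR 2.5. The authors deposited FPKM per group, and how replicates were combined is not stated. For each comparison the authors, who used DESeq2 1.18.0, also deposited a score per group, the mean of read counts scaled within that pair of groups. The column headings name the mutant and the remaining vessel by abbreviations that were read as Poldip2-/- and medial.

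Only the 4 group FPKM columns and 8 group means of scaled read counts were used. Another 24 columns hold single samples under animal numbers that the labels do not tie to a genotype, and 24 columns hold the authors' fold changes, p-values and calls. Neither were used, so library depth, replicate spread and tests are not given here.

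Ratios are log2 ratios of FPKM with 1 added, for genes with a mean of at least 1 FPKM over both groups, and the mark was 2-fold. The members and all 16 other lists were chosen with earlier results of these data known. Named were all members and Poldip2, from each other list at most 2 genes a layer with the largest ratio past the mark, whole lists under 4 genes, and for Cyp1b1, Fmo1 and Ugt8a the 3 nearest genes. Others are said to be named after their values were seen. Some items that the rule or the lists hold are not reported here. Alternatives were a pseudocount of 0.1, centring on the median of all genes, scaled read counts, FPKM rescaled over nuclear protein-coding genes, no minimum, a minimum of 5 FPKM, protein-coding genes only and a 1.5-fold mark. Centring within 20 bins of gene length was chosen after seeing the data. Computations used Python 3.11.15, numpy 2.4.6, pandas 2.3.3 and matplotlib 3.10.9. The ratios, calls and length centring were checked on deposited group values with known folds put in, without noise.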

Additional observations from a re-analysis of the deposited data

How the results depend on the processing

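No value past the 2-fold mark changed sign under the 9 alternatives. Those that changed only the minimum, the genes kept or the mark left every ratio as it was. A change of sign was therefore possible only under the other alternatives. Over all 9, 495 calls were made for the 10 genes and Poldip2. Of these, 474 stayed the same, 17 were newly counted past the mark, 4 were no longer counted past it and 0 were reversed. A further limit was that 20 ratios inside the mark changed sign, those of Fmo2 in the medial layer, Tiparp between layers of controls, Cyp1a1, and the layer differences of Ephx1 and Por. In the endothelial layer, the ratios of Cyp1b1 ranged from 1.54 to 1.61, those of Ugt8a from 1.23 to 1.57 and those of Fmo1 from 1.12 to 1.27, and in the medial layer those of Fmo1 ranged from -1.51 to -1.29. With a 1.5-fold mark, the genes higher in the endothelial layer of Poldip2-/- arteries numbered 5, those lower in the medial layer 2, and those with a lower layer difference 5, since the mark itself was lowered. With a pseudocount of 0.1, 2 genes were lower past the mark in the medial layer. With a minimum of 5 FPKM, fewer genes were counted, and 3 were lower past the mark in the medial than the endothelial layer of Poldip2-/- arteries and 1 in controls. Centring by gene length also left 1 in controls, while the genes higher in the medial layer of controls rose from 2 to 3, and the cause was not tested. The genes lower in the medial layer of controls rose from 2 to 3 with a pseudocount of 0.1, centring on the median and scaled read counts. They also rose to 3 with rescaled FPKM and a 1.5-fold mark.

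Counts over all genes moved more. Genes past the mark in the endothelial layer ranged from 27 to 191 higher and from 89 to 396 lower, and in the medial layer from 667 to 1885 higher and from 824 to 3437 lower. Between layers they ranged from 1016 to 2496 higher and 1221 to 3019 lower in Poldip2-/- arteries and from 1244 to 4198 higher and 1248 to 3354 lower in controls. For the layer difference they ranged from 449 to 1693 higher and from 503 to 2539 lower.

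No paired analysis was possible because the columns of single samples carry animal numbers that match no label. For the same reason leaving out a replicate, a replicate block and other count normalizations were not run. Depth per library is not given, so low values of Ahrr, Cyp1a1 and medial Ugt8a carry no interval.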
